A study of Mus musculus with 4 samples.

Results

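The neurotrophins, their Trk, p75 and sorting receptors, and the related factor GDNF were followed in the mouse hippocampus after ischemia. The set was a list of 8 gene symbols, Bdnf, Ntf3, Gdnf, Ntrk2, Ntrk3, Ngfr, Sort1 and Sorcs2, and each matched 1 of the 22609 genes in the count files. All 8 also passed the filter on low counts, which kept 14978 genes. The study compared hippocampal RNA from C57BL/6 mice of 2 genotypes, FLOXED and PELP1 FBKO. The second is a forebrain knockout of PELP1, a protein that binds estrogen receptors and other transcription factors. All animals of both groups were ovariectomized, carried mini pumps releasing estradiol (E2), went through global cerebral ischemia (GCI) and were killed at 24 h of reperfusion. Each genotype had 2 libraries, called FLOXED 1 and 2 and PELP1 FBKO 1 and 2 here. The Cre line, the age of the animals and whether a library came from 1 animal or several are not stated in the labels, and the series text speaks of sequencing in duplicate. The p-values therefore reflect the spread between the 4 libraries alone, and that spread may be technical. No group was free of ischemia or estradiol.

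Neurotrophins are small secreted proteins made as precursors that proteases cut to the mature form. Mature BDNF, the product of Bdnf, signals mainly through TrkB (Ntrk2), and NT-3 (Ntf3) mainly through TrkC (Ntrk3); both receptors are tyrosine kinases that support neuronal survival and synaptic plasticity. The uncut precursors bind p75 (Ngfr) together with sortilin (Sort1) or SorCS2 (Sorcs2) and can promote cell death or synapse loss. In the hippocampus Bdnf is transcribed mostly in excitatory neurons and responds to neuronal activity. Ntrk2 has a full-length form found in neurons and a truncated form that lacks the kinase and is abundant in astrocytes. The deposited counts are per gene, so these 2 forms of TrkB cannot be told apart.

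Of the 8 genes, Bdnf and Ntrk2 stood furthest apart between the genotypes in units of their error, in opposite directions. A Bdnf promoter known for activity-driven transcription, and the promoter of Ntrk2, are therefore shown, from RefSeq on build GRCm38.p6, a newer build than mm9. RefSeq promoter windows (250 bases before to 50 after a start) were found for 5 of the 8 genes: 7 for Bdnf, 2 each for Ntf3 and Gdnf, and 1 each for Ngfr and Ntrk2. Each sequence below is the 250 bases before a start, 5′ to 3′ on the plus strand, and capitals mark a cyclic AMP response-like element.

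Bdnf, start 3 of 7, chr2:109692186-109692435: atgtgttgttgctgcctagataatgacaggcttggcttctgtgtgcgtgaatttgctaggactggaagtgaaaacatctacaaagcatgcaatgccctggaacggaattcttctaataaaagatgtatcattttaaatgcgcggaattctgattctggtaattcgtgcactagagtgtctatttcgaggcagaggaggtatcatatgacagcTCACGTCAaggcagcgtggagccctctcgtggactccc

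Ntrk2, chr13:58806319-58806568: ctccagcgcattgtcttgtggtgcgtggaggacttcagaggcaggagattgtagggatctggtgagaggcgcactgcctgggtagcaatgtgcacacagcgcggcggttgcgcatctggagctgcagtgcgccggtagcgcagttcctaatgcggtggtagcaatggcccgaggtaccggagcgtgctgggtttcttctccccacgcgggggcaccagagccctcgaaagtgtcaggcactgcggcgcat

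The element in capitals, TCACGTCA, was searched on both strands and begins 38 bases before the third Bdnf start. It contains the short core TGACG on its other strand. It was found at 1 of the 7 Bdnf starts and at none of the other 6 windows of these genes, while 0.441% of 32851 mouse promoter windows held it. The full element TGACGTCA, present in 1.79% of windows, and the estrogen response element GGTCANNNTGACC, present in 0.0700%, matched in none of the 13 windows. The short core TGACG, in 20.8% of windows, occurred in 2 of the 13, at that Bdnf start and at the first Gdnf start. The E-box CACGTG, in 7.15% of windows, occurred in 1, at the first Ntf3 start. A match describes letters in a window and says nothing of binding. Reads were counted over the whole gene, so the share of Bdnf transcripts from each start was not measured.

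Libraries held between 17524594 and 22447658 reads in genes. Markers of the hippocampal fields were present in every library: all 9 CA1 pyramidal and all 10 dentate granule markers had reads throughout. Pelp1 was at 26.7 and 26.3 CPM (reads relative to library size, scaled by TMM as are all levels here) in the FLOXED pair and 18.0 and 17.3 CPM in the PELP1 FBKO pair. Its log2 fold change was -0.59 (SE 0.149; edgeR quasi-likelihood, adjusted p = 0.130), and the sources used here do not say which part of the gene is deleted. The 4 libraries differed in how long transcripts were represented. Across 14818 genes, Spearman's rho between transcript length and a library's deviation from the mean was -0.476 for FLOXED 1 and 0.285 for FLOXED 2, and it was 0.349 for PELP1 FBKO 1 and 0.0229 for the other knockout library; genes are not independent replicates. With 2 libraries against 2, an exact permutation test of 1 gene cannot go below p = 0.333, so the tests borrow their estimate of spread from all genes. A positive log2 fold change stands for a higher level in PELP1 FBKO throughout.

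Across all genes, edgeR's quasi-likelihood test at an adjusted p of 0.05 called 0 of 14978 genes, or 0%, and 0 of the 8. The smallest adjusted p of that quasi-likelihood test was 0.0501, just above the threshold, so the count of 0 depends on where the threshold is set. At an unadjusted p under 0.05, 1 of the 8 was higher in PELP1 FBKO (Ntrk2) and 1 lower (Bdnf), beside a background of 10.1% of all tested genes higher and 5.55% lower. DESeq2 gave an adjusted p for 7 and called 1 of them, Ntrk2, as higher and 0 as lower, beside 2.2% higher and 0.895% lower among all genes. Both libraries of PELP1 FBKO lay above both of FLOXED in 2 of the 8 (Ntrk2 and Ntrk3), where 25.4% of all genes did so, and below in 1 (Bdnf), where 23% did; the share of genes above is near the background and the share below is under it. The median log2 fold change of the 8 was 0.23, against a median of 0.00015 over all genes tested. Of the 8, 7 were positive and 1 negative, where 50.0% of all genes tested were positive.

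**Figure D1:**
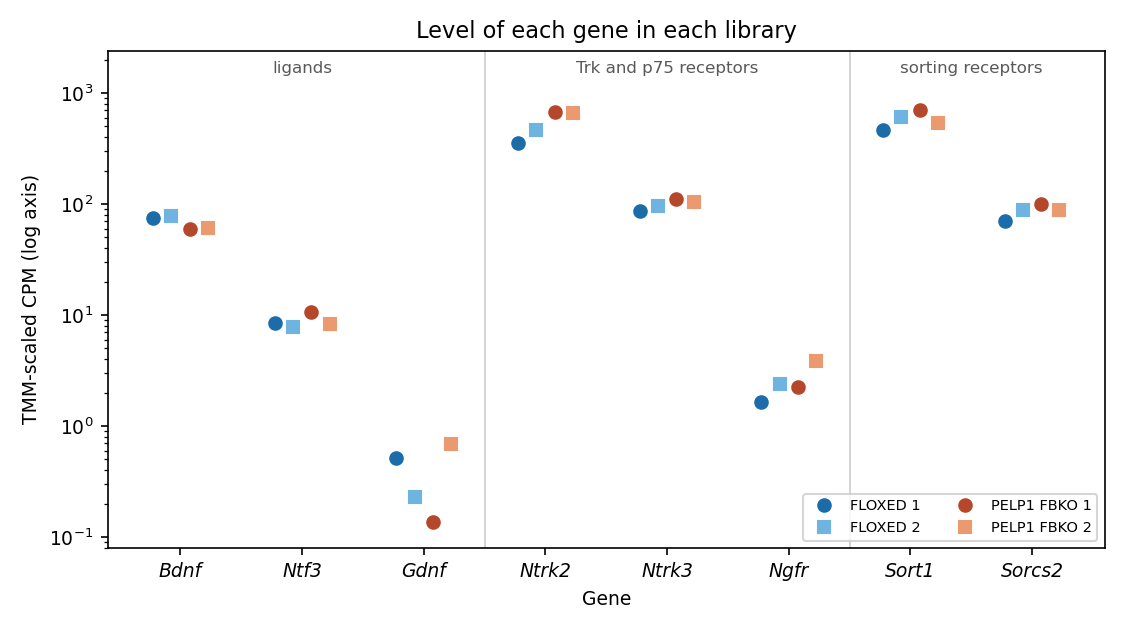
Level of each of the 8 genes in each of the 4 libraries, in TMM-scaled CPM on a log axis, with circles for replicate 1 and squares for replicate 2. Both PELP1 FBKO points of Bdnf (60.1 and 61.2 CPM) lie below both FLOXED points (75.6 and 78.7 CPM), and those of Ntrk2 (668 and 661 CPM) lie above (358 and 467 CPM).

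Among the ligands, Bdnf was lower in PELP1 FBKO by a small amount with little spread. Its level was 75.6 CPM in FLOXED 1, 78.7 CPM in FLOXED 2, then 60.1 and 61.2 CPM in PELP1 FBKO 1 and 2, from 1325, 1705, 1325 and 1249 reads. The 2 genotypes did not overlap, and the gap between them was wider than the difference within either. The means were 77.1 ± 2.19 CPM (SD, n = 2) and 60.6 ± 0.778 CPM (SD, n = 2), so that PELP1 FBKO stood at 0.786 of the FLOXED level. With a log2 fold change of -0.35 (SE 0.122), Bdnf did not pass the threshold of 0.05 (edgeR quasi-likelihood, adjusted p = 0.235). Its value lay between -0.31 and -0.40 over 13 alternatives, with adjusted p between 0.0678 and 0.702, so its size depended little on the scaling or on any 1 library while its call was negative throughout.

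Ntf3, which encodes NT-3, had fewer reads than Bdnf and its genotypes overlapped. Levels of Ntf3 measured 8.50 and 7.84 CPM in the FLOXED pair and 10.7 and 8.38 CPM in the PELP1 FBKO pair, from 149, 170, 236 and 171 reads. PELP1 FBKO 1 was the highest library, and PELP1 FBKO 2 lay between the FLOXED libraries. The log2 fold change of 0.23 (SE 0.206; edgeR quasi-likelihood, adjusted p = 0.637) rested on that library, since it was 0.018 without PELP1 FBKO 1 and 0.39 without PELP1 FBKO 2.

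Gdnf encodes a survival factor of another protein family that signals through GFRα receptors and RET. It had 9 and 5 reads in FLOXED and 3 and 14 in PELP1 FBKO, or 0.513, 0.231, 0.136 and 0.686 CPM. The PELP1 FBKO libraries were the lowest and the highest of the 4, and the lowest, with 3 reads, sits at the limit that a count of 0 allows. With a log2 fold change of 0.16 and an SE of 0.815, a difference was not detectable at this depth.

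Among the receptors, Ntrk2 had the largest log2 fold change of the set. Its level was 358 CPM in FLOXED 1, 467 CPM in FLOXED 2, then 668 and 661 CPM in PELP1 FBKO 1 and 2, from 6272, 10112, 14738 and 13500 reads. Both PELP1 FBKO libraries were above both FLOXED libraries, and FLOXED 1 was the lowest. The means were 412 ± 76.9 CPM for FLOXED and 665 ± 4.94 CPM for PELP1 FBKO (SD, n = 2 each), a 1.61-fold difference. Its log2 fold change was 0.69 (SE 0.170), rank 434 of 14978 genes by p, and it did not pass the threshold in the main test (edgeR quasi-likelihood, adjusted p = 0.125). The threshold was passed with DESeq2 (adjusted p = 0.00379) and in edgeR without PELP1 FBKO 2 (0.70, adjusted p = 0.0385), and adjusted p ranged from 0.00379 to 0.452 over 13 alternatives. Ntrk2 has a long transcript, 8744 bases at its longest, and offsets for length and GC content alone put it 0.21 lower in FLOXED 1 than the mean on the log2 scale. With those offsets its log2 fold change was 0.56 (edgeR quasi-likelihood, adjusted p = 0.0554).

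Ntrk3, the gene of TrkC, lay slightly higher in PELP1 FBKO. It measured 87.1 and 95.5 CPM in the FLOXED pair and 111 and 104 CPM in the PELP1 FBKO pair, with no overlap. The log2 fold change was 0.24 (SE 0.128; edgeR quasi-likelihood, adjusted p = 0.416). Its longest transcript has 19703 bases, the longest of the set, and with length and GC offsets the value was 0.092 (adjusted p = 0.690).

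Ngfr, the gene of p75, was expressed at a low level and was highest in PELP1 FBKO 2. It had 29 and 52 reads in FLOXED and 50 and 79 reads in PELP1 FBKO, or 1.65, 2.40, 2.27 and 3.87 CPM. The genotypes overlapped, with PELP1 FBKO 1 below FLOXED 2. The log2 fold change was 0.58 (SE 0.366; edgeR quasi-likelihood, adjusted p = 0.482), and it was 0.35 when FLOXED 1 was left out, 0.87 when FLOXED 2 was, 0.90 without PELP1 FBKO 1 and 0.15 with the other knockout library left out. In the adult forebrain Ngfr is best known from cholinergic neurons of the septum and basal forebrain. Of 5 cholinergic neuron markers, 3 (Chat, Lhx8 and Isl1) had 0 reads in at least 1 library. Isl1 had 0 reads in both FLOXED libraries, 3 in PELP1 FBKO 1 and 31 in PELP1 FBKO 2; Lhx8 had 0, 0, 0 and 10, and Chat 0, 0, 2 and 8. Slc18a3 had 3, 5, 6 and 6 reads, and Slc5a7 had 5, 9, 6 and 26. The summed level of the 5 was 0.456 and 0.646 CPM in FLOXED and 0.771 and 3.97 CPM in PELP1 FBKO. The 8 meningeal fibroblast markers summed to 132 and 163 CPM in FLOXED and to 177 and 261 CPM in PELP1 FBKO. PELP1 FBKO 2 was the highest library in Ngfr and in both marker sums. It was also the highest in the summed markers of oligodendrocytes, interneurons, microglia and reactive astrocytes. The sums of oligodendrocyte precursor markers were nearly equal in PELP1 FBKO 1 and 2, at 382.5 and 382.9 CPM. The part of any of these cell types in the Ngfr value was not tested.

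The sorting receptors did not separate the genotypes. Sort1, the gene of sortilin, measured 460 and 614 CPM in the FLOXED pair and 705 and 534 CPM in the PELP1 FBKO pair. PELP1 FBKO 2 lay between the FLOXED libraries, and FLOXED 1 was the lowest. The log2 fold change of 0.21 (SE 0.201; edgeR quasi-likelihood, adjusted p = 0.662) was 0.014 when FLOXED 1 was left out, 0.42 when FLOXED 2 was, -0.025 without PELP1 FBKO 1, 0.39 without the other knockout library, and 0.078 with length and GC offsets. Sorcs2 measured 70.3 and 88.7 CPM in the FLOXED pair and 99.9 and 88.1 CPM in the PELP1 FBKO pair, and PELP1 FBKO 2 lay just below FLOXED 2. Its log2 fold change of 0.24 (SE 0.154; edgeR quasi-likelihood, adjusted p = 0.490) was 0.084 when FLOXED 1 was left out, 0.41 when FLOXED 2 was and 0.13 without PELP1 FBKO 1. FLOXED 1 was the lowest of the 4 libraries in 5 of the 8 genes (Ntrk2, Ntrk3, Ngfr, Sort1 and Sorcs2). The length and GC offsets for FLOXED 1 were -0.28 for Ntrk3, -0.18 for Sort1, -0.14 for Sorcs2 and 0.01 for Ngfr on the log2 scale. For Ntf3, whose longest transcript of 1483 bases is the shortest of the set, the offset was 0.16.

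**Figure D2:**
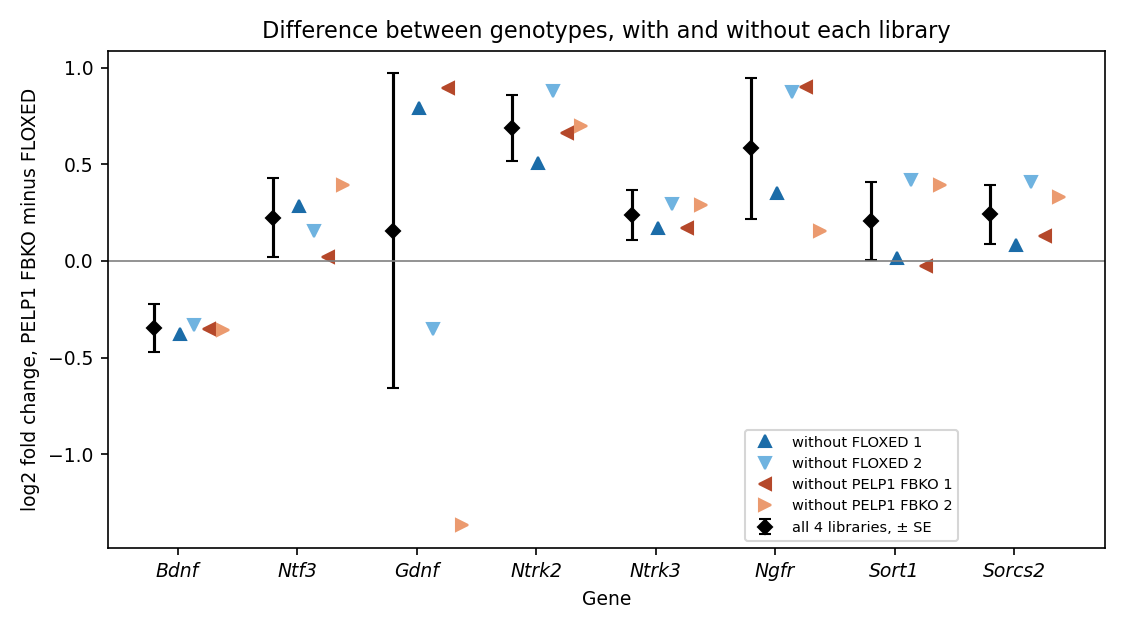
Log2 fold change of each gene, PELP1 FBKO minus FLOXED, with all 4 libraries (black diamonds, ± SE) and with each library left out in turn (triangles). Bdnf stays between -0.33 and -0.38 and Ntrk2 between 0.51 and 0.88, while Sort1 and Gdnf cross 0.

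On a scale of CPM per kilobase of the longest transcript, which allows levels of different genes to be set side by side, Sort1 and Ntrk2 were the most abundant of the 8. In FLOXED, Sort1 was at 78.5 ± 15.9, Ntrk2 at 47.1 ± 8.80, Bdnf at 18.1 ± 0.513 and Sorcs2 at 13.9 ± 2.28 CPM per kilobase (SD, n = 2). Below them came Ntf3 at 5.51 ± 0.312, Ntrk3 at 4.64 ± 0.302, Ngfr at 0.588 ± 0.153 and Gdnf at 0.101 ± 0.054 CPM per kilobase (SD, n = 2). In PELP1 FBKO the means were 90.6 ± 17.6 for Sort1 and 76.0 ± 0.565 for Ntrk2. They were neighbours there that differed by less than the spread of Sort1, with Ntrk2 at 75.6 to 76.4 and Sort1 at 78.2 to 103. Sorcs2 (16.5 ± 1.47) stood above Bdnf (14.2 ± 0.182) in PELP1 FBKO and below it in FLOXED. Ntf3 (6.43 ± 1.11) and Ntrk3 (5.47 ± 0.264) were neighbours whose ranges met in PELP1 FBKO, where the lower Ntf3 library and the higher Ntrk3 library were both at 5.65 CPM per kilobase. A gene is understated on this scale where its shorter transcripts prevail. Ntrk3 has 20 annotated transcripts, Bdnf 11, Ntrk2 10 and Sorcs2 5, so the order of the genes can depend on the length taken.

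As a ratio of ligand to receptor, Bdnf per 100 CPM of Ntrk2 was 21.1 in FLOXED 1, 16.9 in FLOXED 2, then 8.99 and 9.25 in PELP1 FBKO 1 and 2. The ratio was lower in both PELP1 FBKO libraries; it combines the 2 differences given above and is no further test.

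Summed cell type markers differed between the genotypes alongside both genes. In bulk tissue, fewer cells of a type and less RNA per cell cannot be told apart. The 11 astrocyte markers summed to 3987 and 4895 CPM in FLOXED and to 6635 and 6180 CPM in PELP1 FBKO. The log2 fold change was positive in all 11, with a median of 0.53, and 6 were higher at an unadjusted p under 0.05, beside 10.1% of all genes. DESeq2 called 5 of them higher, beside 2.2% of all genes, and edgeR's adjusted test 0. Ntrk2 amounted to 8.97, 9.53, 10.1 and 10.7 CPM per 100 CPM of these markers, in the order FLOXED 1, FLOXED 2, PELP1 FBKO 1 and PELP1 FBKO 2. On this scale the highest library stood 1.19 times above the lowest, against 1.87 times for Ntrk2 itself. Much of the astrocyte sum came from its most abundant gene, Slc1a2. With the libraries in the same order, Slc1a2 alone measured 1482, 2430, 3386 and 2722 CPM. Ntrk2 was not scaled to the sum without Slc1a2, so how far the narrower range rests on that gene was not tested. Oligodendrocyte markers were also higher, with sums of 3006 and 3851 CPM against 5966 and 6431 CPM. The 9 endothelial and mural markers summed to 157 and 208 CPM against 269 and 257 CPM, and all 9 log2 fold changes were positive. The 8 microglial markers summed to 593 and 566 CPM against 719 and 948 CPM, and all 8 were positive. Ntrk2 was scaled to astrocyte markers only, so whether it followed those markers more closely than others was not tested. The 10 reactive astrocyte markers summed to 3143 and 3122 CPM in FLOXED and to 1935 and 4929 CPM in PELP1 FBKO. Of these, 3 had a positive log2 fold change and 7 a negative one, with a median of -0.64. The part of glial cells in the Ntrk2 value was not tested. Gene counts also do not separate the kinase-bearing form from the truncated one.

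For Bdnf, the 9 CA1 pyramidal markers summed to 719 and 805 CPM in FLOXED and to 555 and 490 CPM in PELP1 FBKO, and all 9 had a negative log2 fold change. At an unadjusted p under 0.05, 7 of the 9 were lower, beside 5.55% of all genes. The 10 dentate granule markers were mixed. Their sum was 392 and 441 CPM against 576 and 458 CPM, 7 log2 fold changes were positive and 3 negative, and at an unadjusted p under 0.05 there were 3 higher and 1 lower (Plk5, at -0.75). The 8 markers of excitatory neurons in general were at 9235 and 9311 CPM in FLOXED, 9368 CPM in PELP1 FBKO 1 and 6904 CPM in PELP1 FBKO 2. Bdnf per 100 CPM of CA1 markers was 10.5 and 9.77 in FLOXED and 10.8 and 12.5 in PELP1 FBKO, not lower in the knockouts. Per 100 CPM of dentate markers it was 19.3 and 17.8 in FLOXED against 10.4 and 13.4 in PELP1 FBKO. Per 100 CPM of excitatory neuron markers it was 0.818 and 0.845 against 0.641 and 0.886, which overlapped. The excitatory sum in PELP1 FBKO 1 rests on its most abundant gene, Camk2a, at 4607 CPM there against 3561 and 3932 CPM in FLOXED. Of the 8 markers, 6 had a negative log2 fold change, with a median of -0.28. In 4 (Hpca, Nrgn, Neurod6 and Neurod2) PELP1 FBKO lay lower without overlap, beside 23% of all genes. Tbr1, Slc17a7, Camk2a and Grin2b overlapped between the genotypes. The part of cell composition in the Bdnf value was not tested.

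**Figure D3:**
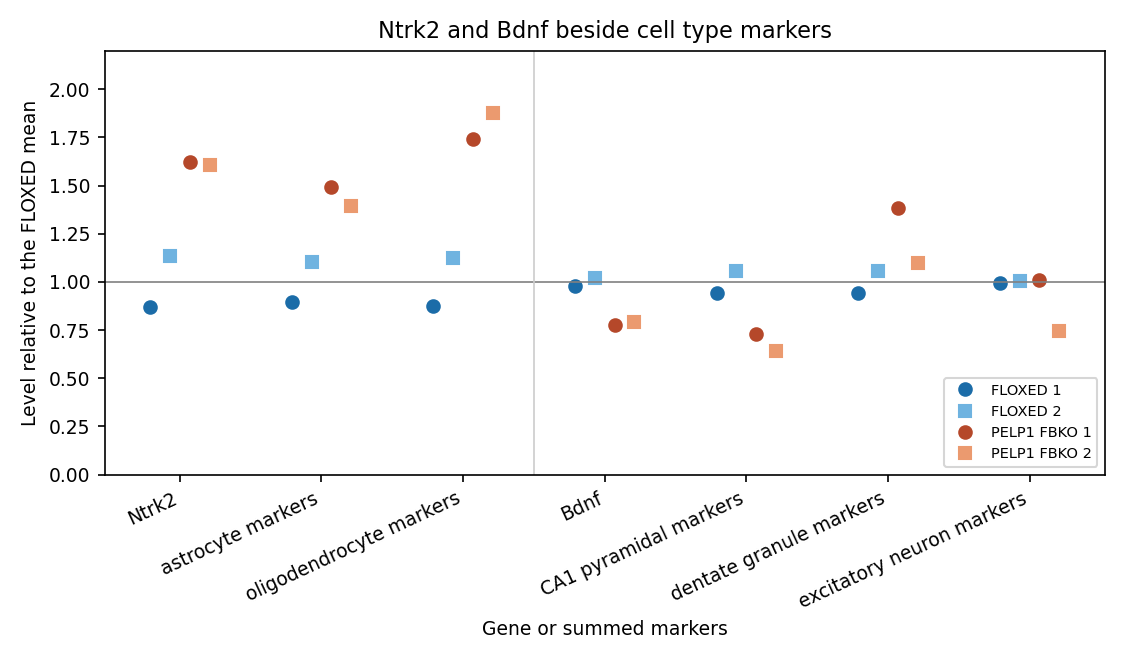
Ntrk2 and Bdnf (TMM-scaled CPM) and summed CPM of marker lists, each divided by its mean over the 2 FLOXED libraries; the line at 1 is that mean. In PELP1 FBKO, Ntrk2 (1.62 and 1.60) lies between the astrocyte sum (1.49 and 1.39) and the oligodendrocyte sum (1.74 and 1.88). Bdnf (0.779 and 0.793) lies above the CA1 sum (0.729 and 0.643) and below the dentate sum (1.38 and 1.10), with the excitatory sum at 1.01 and 0.745.

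The other genes of neurotrophin signaling were read from 7 lists, in each of which edgeR's adjusted test called 0 members. At an unadjusted p under 0.05 the shares over all genes, 10.1% higher and 5.55% lower, stand beside each count that follows. Members of the first list are the other ligands, of which 3 of 5 could be tested and 0 reached an unadjusted p under 0.05. Nrtn, which encodes neurturin of the GDNF family, measured 1.14 and 1.20 CPM in the FLOXED pair and 0.861 and 0.637 CPM in the PELP1 FBKO pair. Of 8 other receptors tested, 1 was higher at an unadjusted p under 0.05 and 0 were lower. That gene was Gfra2, the neurturin receptor, with 25.8 and 31.6 CPM in the FLOXED pair and 40.2 and 39.0 CPM in the PELP1 FBKO pair (log2 fold change 0.46, SE 0.154; edgeR quasi-likelihood, adjusted p = 0.212). Ret, the kinase through which GDNF family receptors signal, was at 9.01 and 8.03 CPM against 10.4 and 11.9 CPM.

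Among 12 tested genes of precursor processing, 1 member reached an unadjusted p under 0.05 on either side, and the median log2 fold change was -0.05. Pcsk6, a proprotein convertase, measured 12.2 and 15.2 CPM in the FLOXED pair and 25.8 and 31.2 CPM in the PELP1 FBKO pair. Its log2 fold change was 1.05 (SE 0.184; edgeR quasi-likelihood, adjusted p = 0.0727), and DESeq2 called it higher (adjusted p = 0.00085). It passed the threshold under 7 of 13 alternatives.

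Of 23 Trk adaptors and signaling enzymes, the unadjusted p was under 0.05 for 3 genes, of which 2 were higher and 1 was lower. Both shares are under those of all genes, and the median log2 fold change over the 23 was 0.12. Gab1, a docking protein, measured 18.9 and 27.9 CPM in the FLOXED pair and 36.5 and 39.6 CPM in the PELP1 FBKO pair (log2 fold change 0.70, SE 0.199). Pik3r1, a regulatory subunit of PI3 kinase, was at 73.6 and 117 CPM against 152 and 136 CPM (log2 fold change 0.59, SE 0.210). In both genes FLOXED 1 was the lowest library, as for Ntrk2. Without it the log2 fold changes were 0.45 for Gab1 and 0.30 for Pik3r1. Without FLOXED 2 they were 1.00 and 0.95, and both genes then passed the threshold (edgeR quasi-likelihood, adjusted p = 0.0254 each). Of 17 p75 partners and effectors, 0 reached an unadjusted p under 0.05. The 2 with the smallest p were the co-receptor genes Rtn4r, the Nogo receptor, at 94.6 and 78.2 CPM against 76.0 and 55.2 CPM, and Lingo1, at 322 and 280 CPM against 272 and 207 CPM.

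Of 15 transcription factors and coactivators that act on Bdnf, 1 reached an unadjusted p under 0.05 on either side. Mef2c, an activity-regulated factor, measured 121 and 163 CPM in the FLOXED pair and 227 and 193 CPM in the PELP1 FBKO pair (log2 fold change 0.56, SE 0.175). Its log2 fold change was 0.36 without FLOXED 1 and 0.78 without FLOXED 2, where it passed the threshold (edgeR quasi-likelihood, adjusted p = 0.0487). Bhlhe40, a helix-loop-helix repressor, was at 130 and 148 CPM against 113 and 97.0 CPM (log2 fold change -0.41, SE 0.141). Creb1, Npas4 and the other 11 did not reach that level.

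The 16 activity and BDNF response genes were mostly on the lower side. The list had 14 negative and 2 positive log2 fold changes and a median of -0.36, and at an unadjusted p under 0.05 there were 7 of the 16 lower and none higher, beside the 5.55% lower of all genes. DESeq2 called 3 lower, Arc, Nptx2 and Nrn1, beside 0.895% of all genes, and the edgeR adjusted test 0. Without overlap, 9 of the 16 lay lower in PELP1 FBKO, beside 23% of all genes. Egr1, Egr2, Egr3, Fos, Fosb, Nr4a1 and Vgf overlapped between the genotypes. The positive log2 fold changes were those of Egr2 (0.37) and Fosb (0.08). Arc, whose protein controls AMPA receptor removal from synapses, measured 276 and 228 CPM in the FLOXED pair and 125 and 125 CPM in the PELP1 FBKO pair. Its log2 fold change was -1.01 (SE 0.145; edgeR quasi-likelihood, adjusted p = 0.0566), and it passed the threshold under 9 of 13 alternatives. Nptx2, a pentraxin secreted at excitatory synapses, was at 154 and 115 CPM against 37.4 and 69.9 CPM, a log2 fold change of -1.32 (SE 0.278; edgeR quasi-likelihood, adjusted p = 0.0934). It passed the threshold under 7 of 13 alternatives and lay between -0.96 and -1.84. CA1 markers and general excitatory neuron markers were mostly lower beside these genes. Log2 fold changes were negative in 9 of 9 CA1 markers (median -0.73) and in 6 of 8 excitatory neuron markers (median -0.28). Other neuronal markers mostly had positive values. These were 9 of 10 for interneurons (median 0.42), 7 of 10 for dentate granule cells and 7 of 9 for CA2 and CA3. The part of cell composition in the list was not tested. Bdnf itself, at -0.35, lay close to the median of this list.

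**Figure D4:**
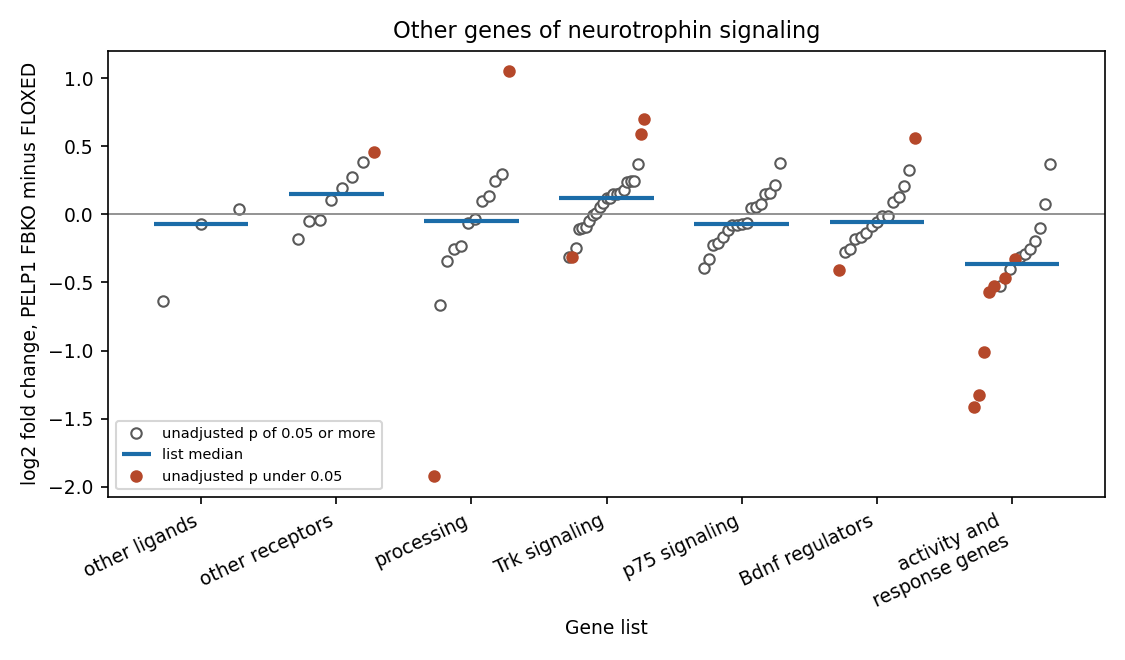
Log2 fold change, PELP1 FBKO minus FLOXED, of every tested gene in 7 lists of neurotrophin signaling, ordered by value within a list, with blue bars at the list medians. The activity and response genes have a median of -0.36, with 7 of 16 genes below an unadjusted p of 0.05, and the other 6 lists have medians between -0.07 and 0.15.

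The genes with the nearest pattern over the 4 libraries were sought for the 4 members with the smallest p, by Euclidean distance between log2 CPM values centred on each gene. For Ntrk2 they were Fat1, Rcan3 and Beta-s, at distances of 0.0464, 0.0476 and 0.0482. For Bdnf they were Traf2, Rgs7 and Arntl (0.0156, 0.0251 and 0.0261). For Ntrk3 they were BC031353, Fam102a and Osbpl1a (0.0170, 0.0212 and 0.0258), and for Ngfr they were Gbp9, Cdk5rap2 and Sctr (0.0533, 0.0676 and 0.0678). With only 4 libraries such likeness is common: 216 genes lay within 0.2 of Ntrk2, 772 of Bdnf, 1703 of Ntrk3 and 43 of Ngfr.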

How the data were processed

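The authors deposited raw read counts per gene symbol for 4 libraries, made with CASAVA 1.8.2, TopHat2 2.0.8b and HTSeq on mouse build mm9, per the submitters' processing notes. The series text names a human build, but the files hold mouse symbols. HTSeq's strand and overlap settings are not given in the sources used here. In RefSeq, non-coding genes overlap Ntrk2, Ntrk3 and Sorcs2, and Psapl1 overlaps Sorcs2, so reads from these could be mixed. HTSeq's summary rows, among them the reads in no gene (14.7% to 15.7% of uniquely placed reads), were left out.

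Counts were scaled by TMM and filtered by filterByExpr in edgeR 4.0.16 (R 4.3.3). Genotype was tested on the whole table with the quasi-likelihood F test, without further terms, adjusted by Benjamini-Hochberg at a threshold of 0.05. Standard errors come from the F statistic. Alternatives were DESeq2 1.42.0, limma-voom (limma 3.58.1), other scalings, filters and thresholds, a replicate block and leaving out each library. Offsets for length and GC content (longest GENCODE vM21 transcript, found for 98.9% of genes) and a crossed block were added after seeing the data. Replicates differed beyond counting noise (chi-square per degree of freedom 23.3 and 17.4) and were counted as separate samples, which does not show that they are separate animals. With 1 library left out, the other of its pair was assumed to vary like the remaining genotype.

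The members and the gene lists were chosen with earlier results of these data known. Genes named are the members, Pelp1, the 2 genes of smallest p in each list and the 3 of nearest pattern for 4 members, on log2 of CPM plus 0.5. Other genes named (Isl1, Lhx8, Chat, Plk5, Camk2a, Hpca, Nrgn, Neurod6, Neurod2, Nrn1, Creb1 and Npas4) were chosen after their values were seen. The same holds for Slc1a2, Slc18a3, Slc5a7, Tbr1, Slc17a7, Grin2b, Egr1, Egr2, Egr3, Fos, Fosb, Nr4a1 and Vgf. The values of some genes that this rule names are not reported here.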

Additional observations from a re-analysis of the deposited data

How the results depend on the processing

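Of 102 values of the 8 genes under 13 alternatives, which leave out the other threshold and the crossed replicate block, for which calls were only counted, 96 kept the direction and the side of the threshold, 2 passed the threshold (Ntrk2) and 4 changed sign. Gdnf was -0.13 with limma-voom and ranged from -1.37 to 0.89 when 1 library was left out, and Sort1 from -0.025 to 0.42. Called members numbered 1 with DESeq2 and with a crossed replicate block, and 0 to 1 without 1 library. With the replicate number as a block, 0 members and 566 genes were called.

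Over all genes the number called, 0 in the main test, was 17 with median-ratio size factors, 42 with upper-quartile factors, 23 with library sizes only, 449 with DESeq2, 359 with no filter beyond 1 read, 43 with at least 50 reads in every library, 293 at a threshold of 0.10, 351 with length and GC offsets and 0 to 598 without 1 library; the causes were not tested. Same-numbered replicates deviated from their genotype means with a correlation of -0.14 across genes, and pairing the crossed numbers gave 314 calls. Gdnf and Ngfr had too few reads for the filter of 50, and DESeq2 gave no adjusted p for Gdnf. Depth limits Gdnf and, less so, Ngfr.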
